A study of Mus musculus with 17 samples.

Results

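The retinoic acid pathway was followed through 9 genes, *Rbp4*, *Aldh1a1*, *Aldh1a2*, *Aldh1a3*, *Crabp1*, *Crabp2*, *Cyp26a1*, *Cyp26b1*, and *Rarb*, of the 26556 genes counted in these libraries. They were chosen by their symbols, with earlier results of the same libraries in view, and all 9 were found in the files. Their differences between groups are therefore described with standard errors and carry no p-value. The 17 RNA-seq libraries came from astrocytes of *Gfap::GFP* mice of the FVB strain at P7, in which *Gfap* promoter sequence drives green fluorescent protein, so that the cells were purified by FACS for the reporter. Each library held the pooled cells of 4 brains. No other allele and no treatment is given for any group. The primary somatosensory cortex gave 4 libraries. The thalamus gave 13, namely 5 from the dorsolateral geniculate nucleus (dLG), which relays vision, 4 from the ventral posteromedial nucleus (VPM), which relays touch from the face, and 4 from the ventral part of the medial geniculate nucleus (MGv), which relays hearing. The study asks whether astrocytes carry signatures of the region and of the sensory nucleus in which they reside.

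Retinoic acid is made from vitamin A and acts as a short-range signal in the embryo and the developing brain. Retinol travels in the blood bound to RBP4, dehydrogenases turn it into retinal, and the ALDH1A enzymes turn retinal into retinoic acid. CRABP proteins bind retinoic acid inside the cell, the CYP26 enzymes oxidize it for removal, and what reaches the nucleus binds RAR and RXR receptors that sit together on repeated DNA motifs. *Cyp26a1* and *Rarb* are known as direct targets of these receptors, so that the pathway controls its own breakdown and its own receptor. The meninges are a known source of retinoic acid for the developing forebrain.

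The receptor motif is shown here for the 2 members in which it was found, since a repeat of this kind is the element through which the pathway can act on its own genes. RefSeq start sites in GRCm38.p6 were available for 7 of the 9 members, in 9 windows of 250 bases before and 50 after the start. A direct repeat of the motif AGGTCA, with G allowed in place of the leading A and T allowed in place of the inner G that precedes TCA, and with 1, 2, or 5 bases between the copies, was searched on both strands. It was found in 2 of the 9 windows, those of *Rarb* and *Cyp26a1*, each with 5 bases between the copies. Of 32851 promoter windows of the same length, 193 (0.588%) held such a repeat and 32 (0.0974%) held one with 5 bases between the copies. In the 250 bases before each start, on the strand of the gene and with the repeat in capitals, the sequences at chr14:16575477-16575726 (minus strand) and chr19:37697558-37697807 (plus strand) read:
Rarb: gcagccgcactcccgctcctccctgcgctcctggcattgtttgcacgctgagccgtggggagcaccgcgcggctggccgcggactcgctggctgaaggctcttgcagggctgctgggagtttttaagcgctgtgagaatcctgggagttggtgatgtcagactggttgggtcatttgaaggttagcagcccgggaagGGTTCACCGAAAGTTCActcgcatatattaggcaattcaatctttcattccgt
Cyp26a1: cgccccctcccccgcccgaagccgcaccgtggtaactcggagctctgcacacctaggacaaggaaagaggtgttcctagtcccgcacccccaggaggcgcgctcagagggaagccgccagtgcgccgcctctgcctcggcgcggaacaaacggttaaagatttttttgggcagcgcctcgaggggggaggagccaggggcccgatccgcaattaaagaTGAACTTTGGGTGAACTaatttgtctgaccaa
The repeat of *Rarb* lay from 53 to 37 bases before the start and ran with the gene, and that of *Cyp26a1* lay from 32 to 16 bases before the start and ran against it. Read on its own strand, with the repeated copies in capitals, each repeat has 17 bases, of which 15 are identical between them.
Rarb repeat: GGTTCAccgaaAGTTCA
Cyp26a1 repeat: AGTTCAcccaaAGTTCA
The *Rarb* start lies inside the annotated gene, which spans chromosome 14 from 16430839 to 16819156. A match is a description of the letters, and binding was not measured in these libraries.

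Library totals ran from 18213687 to 50366363 counts. At these depths 3 counts equal 0.0648 to 0.167 CPM (counts scaled to library size with edgeR's TMM factors). This floor covers counting error only, and a level at or under it counts here as not detectable. A single library stood apart. In dLG replicate c, 17749 genes were detected against 21052 to 23365 in the others, and 7 of the 9 members had no count although its total was 21371571. It is also the only library of its number series, which is given by the leading digits of the library number in the sample label. The dLG means and log2FC of the members that turn on it are given with and without it. All 8 astrocyte marker genes were detected. They summed to 12110 to 13150 CPM in cortical, 7041 to 8349 in dLG, 6134 to 8608 in VPM, and 5553 to 14720 in MGv libraries. Of the 8, 3 were called lower in the thalamus, *Slc1a3* (log2FC -1.72), *Slc1a2* (-1.16), and *Aldoc* (-1.04). The other astrocyte markers were not called and differed in direction. *Gfap* (0.66), *Aqp4* (0.31), and *Aldh1l1* (0.10) had a positive log2FC, and *Fgfr3* (-0.26) and *Gja1* (-0.22) a negative one. *Slc1a3* had the highest cortical mean of the 8, 5232 CPM, against 1495 (dLG), 1610 (VPM), and 1681 CPM (MGv), and so weighs heavily in these sums. Oligodendrocyte lineage markers summed to 5063 to 9710 CPM, highest in VPM replicate a, where astrocyte markers summed to 6134 CPM. *Gfap* itself ran from 8.98 to 19.3 CPM in the VPM, from 450 to 538 in the cortex, from 78.3 to 1310 in the dLG, and from 36.1 to 5525 in the MGv. The MGv mean of *Gfap* was 1864 CPM and 643 without replicate c, and the dLG mean was 534 CPM and 340 without replicate a. The 10 neuronal marker genes summed to between 501 and 1740 CPM, ependymal markers to between 1.28 and 108 CPM with the highest in the cortex, and mural markers to between 2.51 and 64.5 CPM, also highest there. Endothelial markers summed to at most 43.4 CPM, in dLG replicate a. In these bulk libraries, fewer expressing cells and less RNA per cell cannot be told apart.

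Each thalamic nucleus had its own pattern of members. *Crabp2* was high in the MGv and close to the floor elsewhere. *Cyp26a1* was detected in the MGv and the VPM, was at 0 in every cortical library, and passed 3 counts in 1 of the 5 dLG libraries. *Aldh1a1* was highest in the VPM, and *Aldh1a2* was highest in the dLG. *Rbp4* and *Rarb* were detected in every library at levels that overlapped between the thalamus and the cortex. The plot of CPM by library shows these patterns for all 9 genes.

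**Figure D1:**
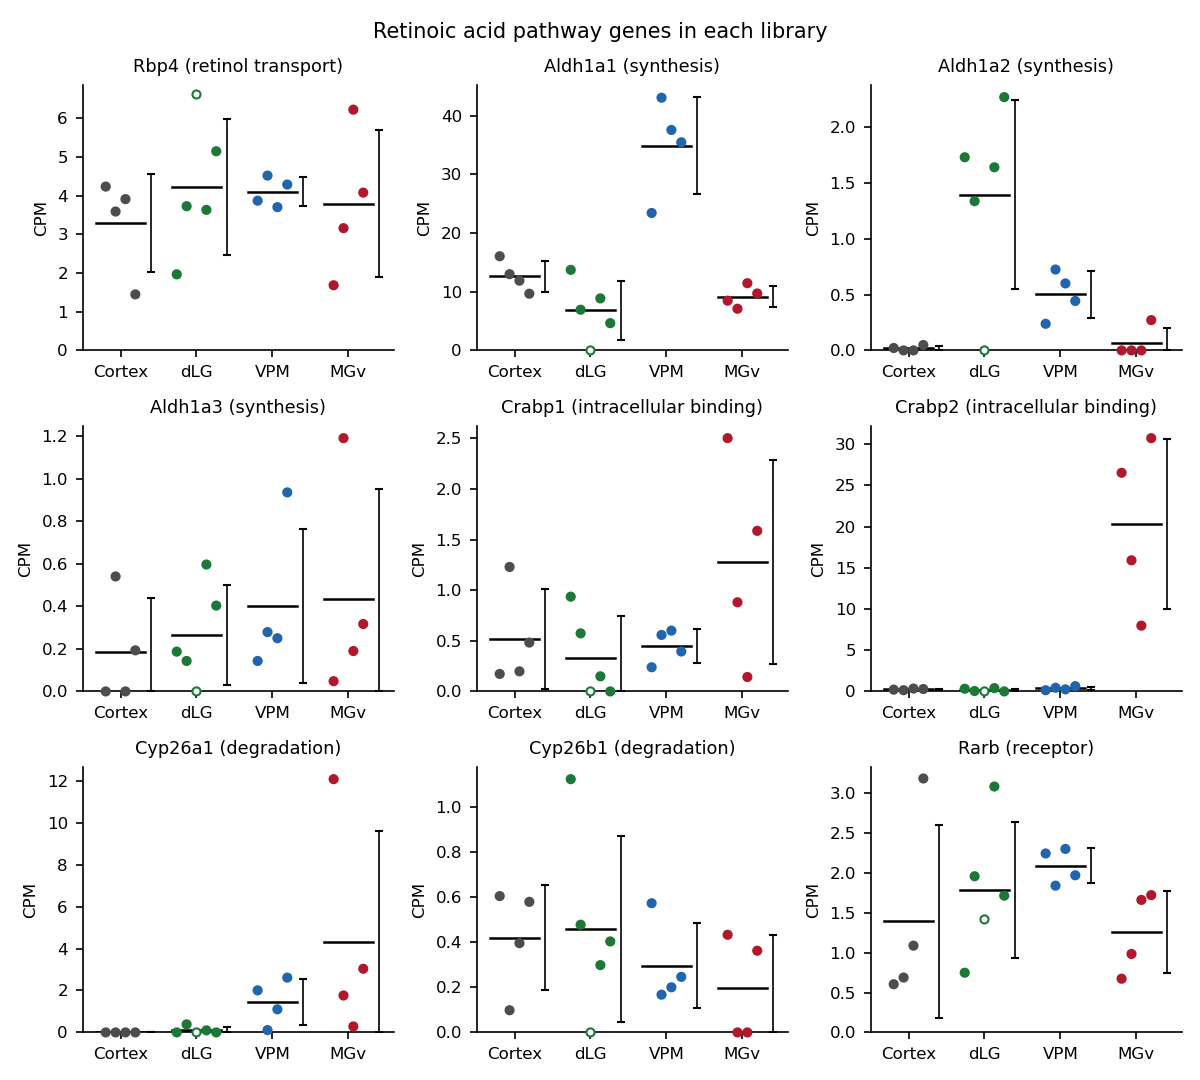
Level of each of the 9 genes (CPM, linear axis from 0, a scale of its own in each panel) in the 4 cortical, 5 dLG, 4 VPM, and 4 MGv libraries. Points are libraries, the open point is dLG replicate c, horizontal lines are means, and vertical bars are the SD, cut at 0. *Crabp2* lay between 7.98 and 30.7 CPM in the MGv and at or under 0.641 CPM in all other libraries.

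Counts of genes called at a BH-adjusted p under 0.1 in edgeR's quasi-likelihood test are given beside the share of all genes called, and nothing is read from them for the members. Between the thalamus and the cortex, 2 of 9 members were called, *Aldh1a2* and *Cyp26a1*, each higher in the thalamus. Of all 17856 genes tested, 5.45% were called higher in the thalamus and 5.93% higher in the cortex. Within the thalamus, *Aldh1a3* and *Cyp26b1* did not pass edgeR's filter on low counts and 7 members were tested. For the dLG against the mean of the other nuclei, 1 was called, *Crabp2*, lower in the dLG, while 0.941% of 17319 genes were called higher and 0.214% lower. For the VPM, *Aldh1a1* was called higher and *Crabp2* lower, against 7.07% of all genes called higher and 9.78% lower. For the MGv, *Crabp2* and *Cyp26a1* were called higher, against 1.57% of all genes called higher and 0.756% lower. Some of these calls changed when 1 library was left out. Without any 1 of the 4 cortical libraries, 0 members were called between the thalamus and the cortex. Calls over all genes also fell in these fits. From 523 to 751 genes were called higher in the thalamus, against 974 with all libraries, and from 616 to 826 lower, against 1059. In the other comparisons, too, the number of all genes called changed with the library left out. Without dLG replicate c, *Aldh1a2* was also called, higher in the dLG and lower in the MGv. *Cyp26a1* was also called, lower in the dLG, without dLG replicate b, MGv replicate c, or VPM replicate b. In the VPM *Crabp2* was not called without MGv replicate d or VPM replicate a or c, and 1 member was left. In the MGv *Cyp26a1* was not called without dLG replicate a or d, MGv replicate a, b, or d, or any VPM library, and 1 member was left.

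**Figure D2:**
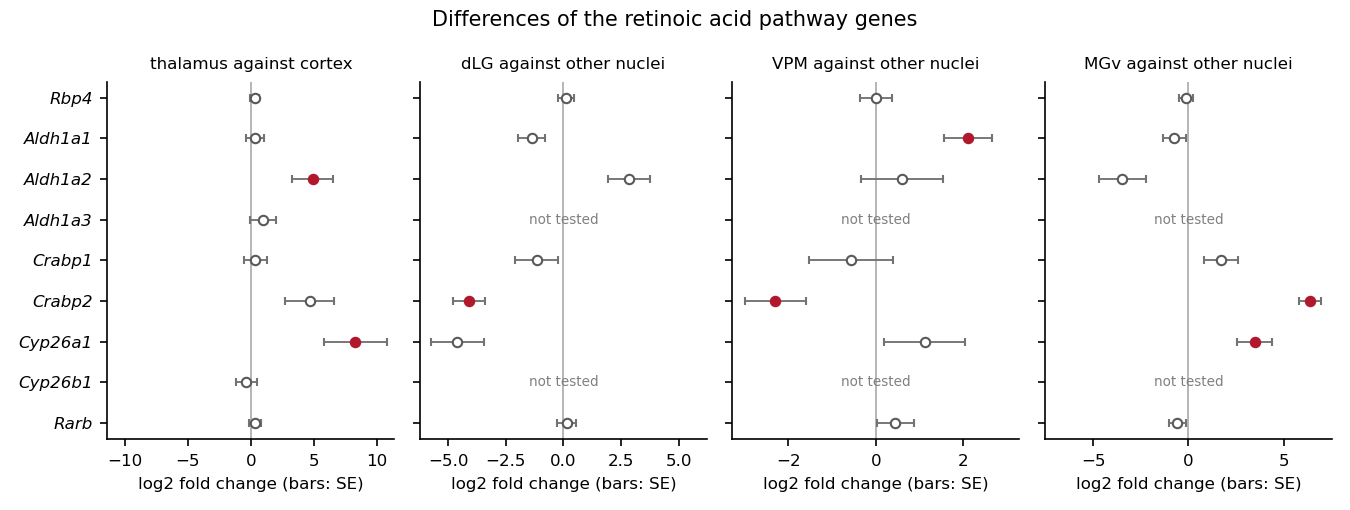
Log2 fold change (log2FC) of each member in the 4 comparisons, with bars of 1 SE and an axis scale of its own in each panel. Filled red points are genes called at an adjusted p under 0.1 over all genes, open points are not called, and *Aldh1a3* and *Cyp26b1* were not tested between nuclei. *Crabp2* had a log2FC of 6.38 in the MGv and -4.09 in the dLG.

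*Rbp4* encodes the carrier of retinol in blood and lies on chromosome 19 from 38116629 to 38125281. It was at 4.24, 3.59, 3.91, and 1.45 CPM in cortex replicates a to d. In the dLG it was at 1.97, 3.73, 6.62, 3.63, and 5.15 CPM in replicates a to e, in the VPM at 3.87, 4.52, 3.71, and 4.29 CPM, and in the MGv at 1.69, 3.16, 6.23, and 4.08 CPM. The groups overlapped throughout, and the highest value was that of dLG replicate c. Cortical libraries averaged 3.30 ± 1.26 CPM (SD, n = 4) and thalamic ones 4.05 ± 1.41 CPM (SD, n = 13), and the log2FC was 0.29 (SE 0.34). Between nuclei the log2FC of *Rbp4* was 0.11 (SE 0.34) for the dLG, and -0.10 without dLG replicate c. It was 0.00 (SE 0.36) for the VPM and -0.11 (SE 0.37) for the MGv. Choroid plexus epithelium is a known site of *Rbp4* expression. Its 7 markers together summed to 1.83 to 4.83 CPM in cortical, 0.142 to 2.06 CPM in dLG, 0.542 to 2.00 CPM in VPM, and 1.49 to 8.66 CPM in MGv libraries, with the lowest sum in dLG replicate c. *Ttr* was at 0 in every dLG and every VPM library. Of the 7, 2 were tested between nuclei, and *Clic6* was not called. *Folr1* was called higher in the MGv (log2FC 4.40, adjusted p = 0.0535, edgeR) and lower in the VPM (-4.60, adjusted p = 0.0571). *Kcnj13* and *Aqp1* had higher means in the VPM (0.309 and 0.408 CPM) than in the MGv (0.0852 and 0.235 CPM), and the other markers had lower ones. The part of these cells in the *Rbp4* level was not tested.

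*Aldh1a1* encodes a retinal dehydrogenase and lies on chromosome 19 from 20492715 to 20643465. The 4 VPM libraries were at 23.4, 43.0, 37.6, and 35.5 CPM. The cortical libraries were at 16.0, 13.0, 11.9, and 9.66 CPM, the MGv libraries at 8.47, 7.10, 11.5, and 9.70 CPM, and the dLG libraries at 13.7, 6.93, 0, 8.86, and 4.64 CPM. Every VPM library was above every library of the other groups. The mean in the VPM, 34.9 ± 8.28 CPM (SD, n = 4), was 2.76 times that of the cortex, 3.80 times that of the MGv, and 5.10 times that of the dLG. The dLG mean was 6.83 CPM, and 8.54 CPM without replicate c. The log2FC of the VPM against the other nuclei was 2.10 (SE 0.56), and 1.94 without dLG replicate c. The VPM was also higher within each number series. In the larger series the VPM was at 36.5 CPM and the dLG at 10.3 CPM (n = 2 each), and in the other series at 33.2 and 6.75 CPM (n = 2 each). In the cortex, the dLG, and the MGv the levels of *Aldh1a1* overlapped.

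Thalamus and cortex did not separate for *Aldh1a1*, with 16.2 ± 14.0 CPM (SD, n = 13) against 12.6 ± 2.65 CPM (SD, n = 4) and a log2FC of 0.35 (SE 0.71). Oligodendrocyte lineage markers summed to between 5937 and 9710 CPM in the VPM and between 5063 and 7656 CPM elsewhere, and 5 of 7 were called there, among them *Mag* and *Mbp* higher and *Cspg4* and *Pdgfra* lower. The VPM library with the highest sum, replicate a, had the lowest *Aldh1a1* of the 4, and the library with the lowest sum, replicate b, had the highest. All 6 microglial markers were called lower in the VPM, with sums between 6.69 and 11.2 CPM against 10.9 to 91.9 CPM in the dLG and 11.8 to 54.5 CPM in the MGv. The part of these cells in the *Aldh1a1* level was not tested. *Aldh1a7*, a close paralog, is a neighbor of *Aldh1a1* on the same chromosome, and reads that the copies share could not be assigned with certainty.

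*Aldh1a2* encodes the main retinal dehydrogenase of the embryo and lies on chromosome 9 from 71215789 to 71296243. It had 37, 28, 0, 33, and 45 counts in dLG replicates a to e, 5, 13, 12, and 9 counts in the VPM, 0, 0, 0, and 6 counts in the MGv, and 1, 0, 0, and 1 count in the cortex. Apart from replicate c, every dLG library was above every other library. In CPM, these 4 dLG libraries lay between 1.34 and 2.27, and the VPM libraries between 0.239 and 0.726. The dLG mean was 1.40 ± 0.850 CPM (SD, n = 5), and 1.75 ± 0.389 CPM (SD, n = 4) without replicate c. The VPM mean was 0.502 ± 0.210 CPM (SD, n = 4). From summed counts, 143 in the dLG and 2 in the cortex, the dLG level was 74.4 times that of the cortex, with an exact 95% interval from 20.2 to 620 that covers counting error only. The same ratio was 26.5 for the VPM (39 counts, interval 6.86 to 227).

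The log2FC of *Aldh1a2* was 2.86 (SE 0.91) for the dLG (3.17 without replicate c), 0.60 (SE 0.93) for the VPM, and -3.46 (SE 1.21) for the MGv, each against the other nuclei. Without MGv replicate d, the only MGv library with a count, the value for the MGv was -7.10 and that for the dLG 4.65. Both of these depend on the prior count, since the MGv is then at 0. Between the thalamus and the cortex it was 4.91 (SE 1.60). Within the number series the order of the nuclei was kept, with 1.54 CPM in the dLG and 0.522 CPM in the VPM in the larger series and 1.96 and 0.482 CPM in the other (n = 2 each). Meningeal fibroblasts are a known source of *Aldh1a2*. Of their 9 markers 8 were in the files, and these summed to 128 to 160 CPM in cortical, 84.2 to 106 CPM in dLG, 36.2 to 56.9 CPM in VPM, and 33.8 to 117 CPM in MGv libraries. *Aldh1a2* was at or under 1 count per library in the cortex, which had the highest sums. Most of the cortical sum was *Islr*, with a mean of 118 CPM, and *Col1a2*, with 23.5 CPM. *Foxc1*, *Slc6a13*, and *Col3a1* had lower means in the cortex (0.219, 0.0248, and 0.192 CPM) than in the dLG (1.57, 0.313, and 0.363 CPM). *Lum* and *Col1a1* had higher ones (0.517 and 1.69 CPM against 0.188 and 1.08 CPM). The markers did not move together. Between the thalamus and the cortex 3 of 6 tested were called, *Col1a2* (log2FC -0.82, adjusted p = 0.0215, edgeR) and *Islr* (-1.02, adjusted p = 0.0613) lower in the thalamus and *Dcn* higher (adjusted p = 0.0117). *Dcn* was at 0 in every cortical library and averaged 5.48 CPM in MGv, 1.98 CPM in dLG, and 0.489 CPM in VPM libraries. Between nuclei, *Dcn* and *Islr* were called lower in the VPM, and 0 of 5 tested were called in the dLG and in the MGv. The part of meningeal cells in the *Aldh1a2* level was not tested.

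*Aldh1a3*, which encodes the remaining enzyme of this family and lies on chromosome 7 from 66390890 to 66427517, was near the floor. It had more than 3 counts in 11 of 17 libraries, and its highest level was 1.19 CPM in MGv replicate b. Group means ran from 0.184 CPM (cortex) to 0.437 CPM (MGv), and all groups overlapped. The log2FC of the thalamus against the cortex was 1.01 (SE 1.03).

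*Crabp2* encodes the binding protein known to hand retinoic acid to its nuclear receptor, and lies on chromosome 3 from 87948666 to 87953376. MGv replicates a to d held 551, 307, 168, and 678 counts. The 4 cortical libraries held 10, 3, 7, and 6 counts, the VPM libraries 3, 8, 5, and 13, and the dLG libraries 7, 1, 0, 8, and 0. In CPM the MGv libraries were at 26.5, 15.9, 7.98, and 30.7, and the highest library outside the MGv was VPM replicate d at 0.641. The MGv mean of 20.3 ± 10.3 CPM (SD, n = 4) was 54.8 times that of the VPM (0.370 ± 0.220 CPM, SD, n = 4) and 131 times that of the dLG (0.155 ± 0.193 CPM, SD, n = 5). Without replicate c the dLG mean was 0.194 CPM. The log2FC was 6.38 (SE 0.58) for the MGv, -4.09 (SE 0.70) for the dLG (-3.77 without replicate c), and -2.30 (SE 0.70) for the VPM, each against the mean of the other nuclei. For the dLG and the VPM that mean includes the MGv, so their negative values reflect its high level. The dLG and the VPM overlapped with each other.

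The difference of *Crabp2* between the thalamus and the cortex rested on the MGv. The log2FC was 4.67 (SE 1.91) with the 13 thalamic libraries as 1 group and 2.08 with each nucleus weighted equally on the log scale. The dLG and the VPM alone overlapped with the cortex, which was at 0.250 ± 0.0867 CPM (SD, n = 4). All 4 MGv libraries belong to 1 number series. In that series the means were 20.3 CPM in the MGv (n = 4), 0.446 CPM in the VPM, 0.188 CPM in the dLG, and 0.318 CPM in the cortex (n = 2 each).

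*Crabp1*, which encodes the other binding protein of this pair and lies on chromosome 9 from 54764748 to 54773110, was low in every group. The MGv libraries were at 2.50, 0.881, 0.143, and 1.59 CPM, and the highest library elsewhere was cortex replicate b at 1.23 CPM. Means were 1.28 ± 1.01 CPM (SD, n = 4) in the MGv, 0.521 ± 0.493 CPM (SD, n = 4) in the cortex, 0.448 ± 0.165 CPM (SD, n = 4) in the VPM, and 0.332 ± 0.412 CPM (SD, n = 5) in the dLG, or 0.415 CPM without dLG replicate c. The MGv had the highest mean but overlapped with every other group. Its log2FC against the other nuclei was 1.73 (SE 0.88).

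Over the 17 libraries, the genes whose level was most like that of *Crabp2* were *Nts*, which encodes the neuropeptide neurotensin, *Gbx2*, which encodes a homeobox factor of the thalamus, and *Pth2r*, which encodes a receptor of parathyroid hormone family peptides. Pearson r of log2(CPM + 0.5) was 0.976, 0.916, and 0.881. The libraries share their nucleus, so that these values describe a joint rise in the MGv. *Nts* was at 10.3, 8.71, 6.70, and 38.0 CPM in the MGv libraries and at or under 0.498 CPM in all others. *Gbx2* averaged 16.7 CPM across MGv libraries, 1.07 across dLG, 1.04 across VPM, and 0.0702 across cortical libraries. For *Aldh1a2* the most similar gene was *Plxdc1* (r = 0.852), which averaged 8.06 CPM across dLG libraries, 3.06 across VPM, 1.09 across MGv, and 0.822 across cortical libraries, followed by *Serpinb6b* (0.841) and *Zfp947* (0.803).

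For *Aldh1a1* they were *Mtif2*, *Ctnnbl1*, and *Chst5*, with r of 0.949, 0.945, and 0.938 that fell to 0.862, 0.845, and 0.819 without dLG replicate c. The most similar genes of the remaining members had lower r. For *Cyp26a1* they were *B230209E15Rik* (0.808), *Fsd1*, and *Kcnab2*, and *B230209E15Rik* also led the list of *Crabp1* (0.810), followed by *Npy1r* and *Kcng2*. *Rarb* was most like *Anln* (0.782), *Snx18*, and *Fxr2*, and *Rbp4* most like *Sdccag8* (0.746), *Gm10524*, and *Aqp4*. Among the 36 pairs of members, the highest r was that of *Crabp2* with *Cyp26a1* (0.700), and *Crabp1* had r of 0.610 with *Crabp2* and 0.616 with *Cyp26a1*.

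**Figure D3:**
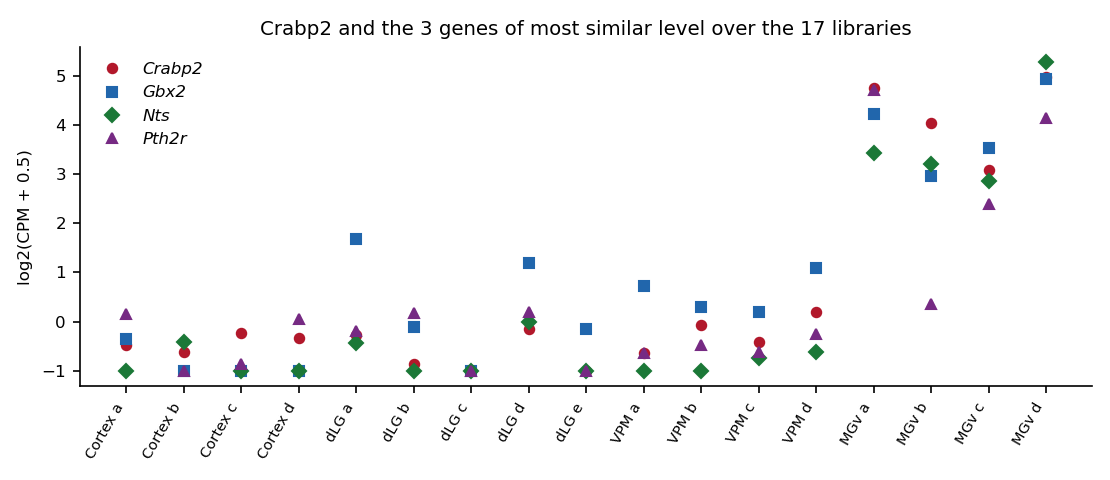
Level of *Crabp2* and of the 3 genes most like it, as log2(CPM + 0.5), in each of the 17 libraries ordered by group. All 4 genes lie highest in MGv libraries, where *Crabp2* reached 30.7 CPM and *Nts* 38.0 CPM in replicate d, and *Pth2r* was at 0.777 CPM in replicate b.

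*Cyp26a1* encodes the oxidase that removes retinoic acid and lies on chromosome 19 from 37697798 to 37701536. It had no count in any of the 4 cortical libraries. The dLG libraries held 0, 8, 0, 2, and 0 counts, the VPM libraries 42, 2, 22, and 53, and the MGv libraries 251, 34, 6, and 67. In CPM the MGv libraries were at 12.1, 1.76, 0.285, and 3.04, and the VPM libraries at 2.01, 0.112, 1.10, and 2.61. The MGv and the VPM overlapped with each other, and the lowest library of each lay under dLG replicate b, which was at 0.382 CPM. Against a floor of 3 counts per cortical library, the MGv mean of 4.29 ± 5.32 CPM (SD, n = 4) was at least 28.9-fold higher than the cortex and the VPM mean of 1.46 ± 1.09 CPM (SD, n = 4) at least 9.82-fold higher. Without MGv replicate a the MGv mean was 1.69 CPM and the bound 11.4-fold. The dLG mean, 0.0964 ± 0.166 CPM (SD, n = 5), was under that floor.

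The log2FC of *Cyp26a1* was 3.49 (SE 0.92) for the MGv and 2.15 without MGv replicate a, its highest library. It was 1.11 (SE 0.92) for the VPM and -4.60 (SE 1.16) for the dLG, -4.29 without dLG replicate c and -6.35 without dLG replicate b. In the larger number series the means were 4.29 CPM in the MGv (n = 4), 1.86 CPM in the VPM, 0.191 CPM in the dLG, and 0 in the cortex (n = 2 each). In the other series the VPM was at 1.06 CPM and the dLG at 0.0498 CPM (n = 2 each). The fitted log2FC of the thalamus against the cortex, 8.31 (SE 2.50), depends on the prior count, since the cortex is at 0.

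*Cyp26a1* moved with neuronal markers among the libraries of the MGv and of the VPM, and *Crabp2* among those of the MGv. In MGv replicates a to d the 10 neuronal markers summed to 1740, 556, 501, and 1423 CPM, and the replicates with the higher sums, a and d, held more *Crabp2*, *Crabp1*, and *Cyp26a1* than replicates b and c. Microglial markers split these libraries in the same way, with sums of 54.5, 11.8, 38.7, and 40.5 CPM. Astrocyte markers had their lowest MGv sum in replicate a and their highest in replicate c. Against the other nuclei, *Nefm* was the only neuronal marker called in the MGv, and it was lower (log2FC -1.50, adjusted p = 0.0427, edgeR). In VPM replicates a to d the neuronal sums were 1184, 580, 919, and 1602 CPM, and the order of *Cyp26a1* in these 4 libraries was the same, while that of *Crabp2* was not. The microglial sums, 6.69, 10.9, 8.61, and 11.2 CPM, had another order, and the oligodendrocyte sum was also lowest in replicate b. The neuronal markers of the dLG libraries summed to between 1126 and 1551 CPM and those of the cortical ones to between 848 and 1077 CPM, with *Crabp2* and *Cyp26a1* near or under the floor. The marker list was not made to tell neurons of different regions or nuclei apart, so sums of different groups do not bear on this. The study names *Crabp2* as a gene shared by neurons and astrocytes of the MGv, with lower levels in astrocytes. It reads its single-cell data, in situ hybridization, and qPCR of regional genes as evidence against contamination of its astrocyte data by neurons. In cultured thalamic astrocytes it also reports an active state of histone marks near *Crabp2* that goes with MGv origin. MGv replicate c had the highest astrocyte sum, 14720 CPM, of which *Gfap* made up 5525 CPM. It had the lowest neuronal sum of all 17 libraries, and its 168 counts of *Crabp2* (7.98 CPM) were the lowest of the 4 MGv libraries. The part of neuronal or microglial RNA in these levels was not tested.

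*Cyp26b1*, which encodes a related oxidase and lies on chromosome 6 from 84571414 to 84593908, had more than 3 counts in 12 of 17 libraries, and all groups overlapped. Means were 0.461 CPM in the dLG (0.576 without replicate c), 0.420 CPM in the cortex, 0.297 CPM in the VPM, and 0.199 CPM in the MGv. The highest library, dLG replicate a, was at 1.12 CPM. The log2FC of the thalamus against the cortex was -0.35 (SE 0.85).

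*Rarb*, which encodes the receptor that retinoic acid is known to induce, was detected in all 17 libraries. The cortical libraries were at 0.605, 0.689, 1.09, and 3.19 CPM, the dLG libraries at 0.749, 1.96, 1.42, 3.09, and 1.72 CPM, the VPM libraries at 2.25, 1.84, 2.30, and 1.97 CPM, and the MGv libraries at 0.674, 0.985, 1.66, and 1.72 CPM. The highest and the lowest value were both in the cortex. Every VPM library was above every MGv library, and no other pair of groups separated. The mean was 2.09 ± 0.220 CPM (SD, n = 4) in the VPM and 1.26 ± 0.515 CPM (SD, n = 4) in the MGv. The log2FC was 0.31 (SE 0.46) for the thalamus, and 1.14 without cortex replicate d. It was 0.44 (SE 0.42) for the VPM, 0.15 (SE 0.40) for the dLG, and -0.59 (SE 0.44) for the MGv. Other annotated genes on the opposite strand, *Top2b* and *Gm48162*, overlap 38.4% of the exonic length of *Rarb*, so its counts may hold their reads.

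Levels of different members were compared per kilobase of exon. In the cortex the highest was *Aldh1a1* with 2.56 CPM per kb, followed by *Rbp4* with 2.46 CPM per kb. In the dLG *Rbp4* was highest (3.14 CPM per kb), in the VPM *Aldh1a1* (7.06 CPM per kb), and in the MGv *Crabp2* (15.4 CPM per kb). Among the 3 synthesizing enzymes *Aldh1a1* had the highest level in every group, and in the dLG it was at 1.38 CPM per kb against 0.617 CPM per kb for *Aldh1a2*, or 1.73 against 0.771 CPM per kb without replicate c. Of the oxidases, *Cyp26a1* was above *Cyp26b1* in the MGv (2.16 against 0.0372 CPM per kb) and the VPM (0.735 against 0.0555), and below it in the dLG (0.0486 against 0.0861) and the cortex. The plot of levels per kilobase shows that *Rbp4* and *Rarb* varied least between groups.

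**Figure D4:**
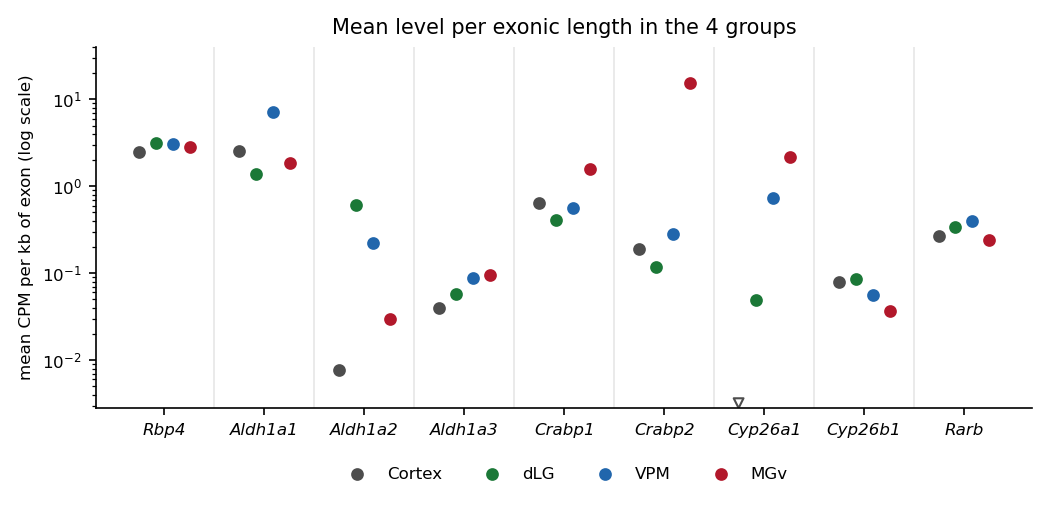
Mean level of each member in the 4 groups, in CPM per kb of exon on a log axis. The triangle at the lower edge marks *Cyp26a1* in the cortex, which was at 0. *Crabp2* in the MGv (15.4) and *Aldh1a1* in the VPM (7.06) lie above all other values.

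The other genes of the pathway came from a list of 45 genes of retinol handling, dehydrogenases, receptors, cofactors, and known responders, of which 38 were in the files. This list, like the members, was chosen with earlier results of these data known, so the shares called are a description. Between the thalamus and the cortex 32 were tested and 6 called (18.8% in both directions together), 4 with more in thalamic and 2 with more in cortical libraries. Of all genes, 5.45% and 5.93% were called in these directions, shares to be added for a like comparison. The median log2FC of the 32 was 0.05 against 0.02 over all genes. *Bco2*, which cleaves carotenoids, was at 8.54, 6.54, 7.92, and 8.16 CPM in the cortical libraries and between 0 and 4.30 CPM in the thalamic ones (log2FC -1.78, SE 0.49, adjusted p = 0.0302, edgeR). *Rdh5*, a retinol dehydrogenase, lay between 13.0 and 18.4 CPM in the cortex and between 21.6 and 49.8 CPM in the thalamus (log2FC 0.86, SE 0.21, adjusted p = 0.0142, edgeR), though 25.6% of its exonic length is shared with *Bloc1s1*.

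Among known responders to retinoic acid, *Ret*, which encodes a receptor tyrosine kinase, was at 0.756, 0.0984, 0.545, and 1.21 CPM in the cortex and between 2.29 and 8.23 CPM in the thalamus, a 7.93-fold difference without overlap (log2FC 2.97, SE 0.46, adjusted p = 0.000223, edgeR). *Ret* was called without any 1 of the 17 libraries and under all 8 other settings. *Tgm2*, a transglutaminase, was higher in the cortex, with 4.25 ± 2.36 CPM (SD, n = 4) against 0.906 ± 0.847 CPM (SD, n = 13) (log2FC -2.23, SE 0.67, adjusted p = 0.0467, edgeR). Other genes on the opposite strand overlap 21.8% of its exonic length.

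Some of these calls depended on 1 library. Without cortex replicate d, *Bco2* had an adjusted p of 0.104 and *Tgm2* one of 0.246 in edgeR, and over all alternatives the adjusted p ranged from 0.000347 to 0.104 and from 0.00248 to 0.246.

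In the VPM 10 of the 31 other genes tested were called, 7 lower and 3 higher. That is 32.3% in both directions together. Of all genes, 7.07% were called higher and 9.78% lower, shares to be added for a like comparison. The median log2FC of the 31 was -0.24 against -0.02 over all genes. Of the 5 receptors, *Rara*, *Rxra*, and *Rxrg* were lower and *Rarg* and *Rxrb* were not called. *Rxrg* was at 30.0, 36.9, 40.2, and 29.3 CPM in the VPM and at 94.6, 81.2, 88.2, 88.0, and 88.7 CPM in the dLG, without overlap (log2FC of the VPM -1.44, SE 0.26, adjusted p = 0.00635, edgeR). The MGv libraries spread from 36.8 to 151 CPM, and the cortical ones from 32.8 to 39.1 CPM. Within the number series the VPM was at 34.8 CPM and the dLG at 87.9 CPM in the larger and at 33.5 and 88.3 CPM in the other (n = 2 each). *Rxrg* was called without any 1 of the 13 thalamic libraries and under all 8 other settings, with an adjusted p in edgeR or DESeq2 of at most 0.0376. Between the thalamus and the cortex its adjusted p in edgeR was 0.1003, and from 0.0133 to 0.246 over the alternatives.

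*Rxra* was at 7.56 ± 0.943 CPM (SD, n = 4) in the VPM, 15.8 ± 1.43 CPM (SD, n = 4) in the MGv, and 14.4 ± 8.45 CPM (SD, n = 5) in the dLG, or 11.2 CPM without dLG replicate c (log2FC -1.03, SE 0.32, adjusted p = 0.0565, edgeR). *Rara* differed less, with a log2FC of -0.40 (SE 0.14, adjusted p = 0.0854, edgeR). The coactivator *Ncoa2* (log2FC -0.68, SE 0.19, adjusted p = 0.0372, edgeR) and the corepressor *Nrip1* (-0.42, SE 0.13, adjusted p = 0.0517) were lower as well, as were the retinal reductase *Dhrs3* (-0.70, SE 0.19, adjusted p = 0.0324) and *Rai1* (-1.10, SE 0.30, adjusted p = 0.0358), which is named for its induction by retinoic acid. Higher in the VPM were *Tgm2* (log2FC 2.11, SE 0.69, adjusted p = 0.0638, edgeR) and the retinol dehydrogenases *Rdh11* (0.41, SE 0.15, adjusted p = 0.0908) and *Rdh14* (0.26, SE 0.10, adjusted p = 0.0982). The VPM was thus the nucleus with the highest *Aldh1a1* and the lowest mean of *Rara*, *Rxra*, and *Rxrg* among the nuclei.

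Except for *Rxrg*, each of these calls was lost when some single library was left out. *Dhrs3*, *Ncoa2*, and *Rai1* lost theirs without VPM replicate a, c, or d, with an adjusted p of up to 0.130, 0.141, and 0.125 in edgeR. *Rxra* lost its call without any 1 of the 4 VPM libraries (up to 0.155), *Nrip1* without MGv replicate d or VPM replicate b, c, or d (up to 0.198), and *Tgm2* without MGv replicate a or VPM replicate a, c, or d (up to 0.183). *Rara*, *Rdh11*, and *Rdh14* kept theirs in 3, 4, and 4 of 13 such fits. The VPM is also the nucleus in which the most genes of all were called.

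In the dLG 1 of the 31 other genes was called and in the MGv none was, in edgeR. At an unadjusted p under 0.05 there were 6 in the MGv, each with a log2FC above 0, and DESeq2 called 3, among them *Rarres1* and *Rxrg*. For *Rxrg* in the MGv the log2FC was 0.78 and the adjusted p 0.144 in edgeR, 0.00333 without MGv replicate a, and up to 0.492 over all alternatives. The receptor *Rarg* had group means between 5.11 and 7.84 CPM and *Rxrb* between 65.2 and 74.1 CPM, and neither was called in any of the 4 comparisons.

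**Figure D5:**
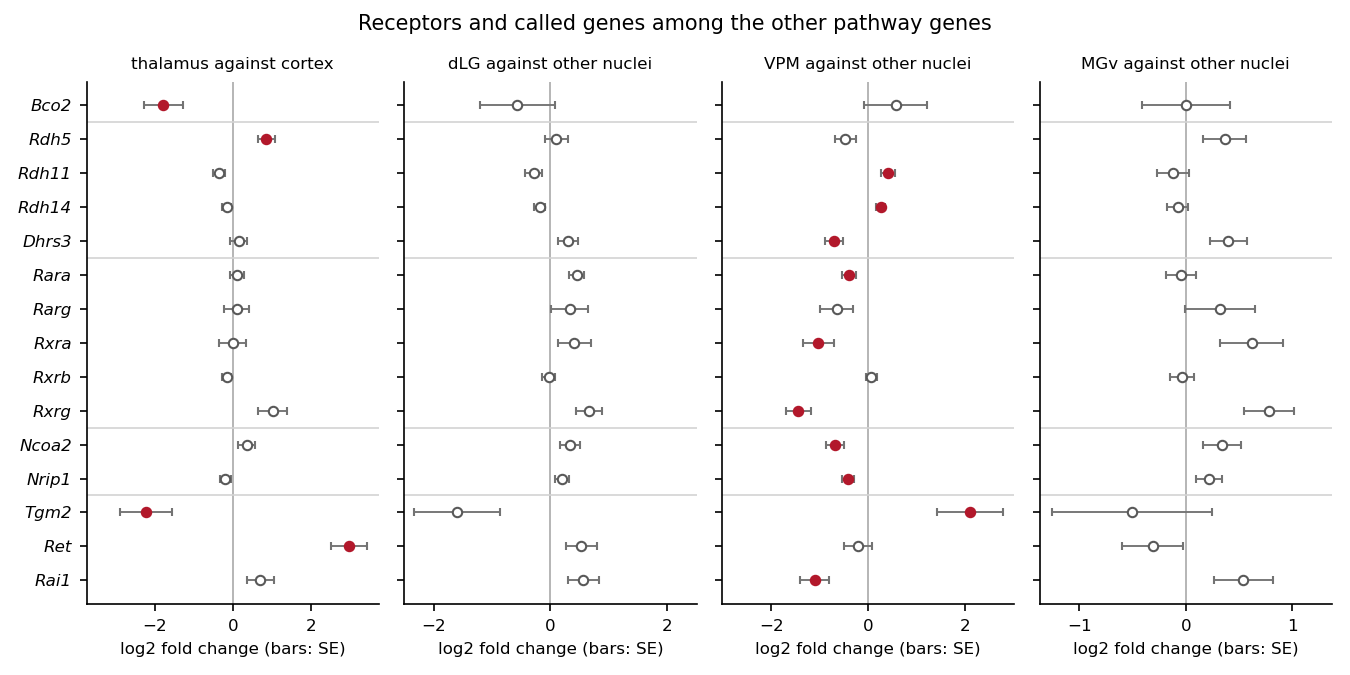
Log2FC with bars of 1 SE in the 4 comparisons for the 5 receptors and other pathway genes called in at least 1 comparison, with an axis scale of its own in each panel. Filled red points were called at an adjusted p under 0.1 in edgeR. Gray lines divide carriers, dehydrogenases, receptors, cofactors, and responders. In the VPM *Rxrg* (-1.44), *Rai1* (-1.10), and *Rxra* (-1.03) lie farthest to the left and *Tgm2* (2.11) farthest to the right.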

How the data were processed

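RNA was sequenced from 17 libraries of FACS-purified P7 astrocytes, each pooled from 4 brains. The authors trimmed the reads and checked them with FastQC (version 0.11.7), mapped them to GRCm38 (mm10) with STAR (version 2.7.0d), handled the alignments with SAMtools (version 1.9), and counted reads per gene of Ensembl release 95 with featureCounts of Subread (version 1.6.4). They deposited raw counts per gene for each library, without normalization. The files list 26556 genes with a total of at least 10 counts each. Groups were taken from the sample labels. Nothing states whether counting used the strand, and the library kit does not mark it, so overlaps with other annotated genes are given where they exceed 10% of a gene's exonic length. Positions are those of GENCODE release 21 for the mouse on GRCm38, and start sites and promoter sequences are from RefSeq on GRCm38.p6.

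Counts were scaled with TMM factors in edgeR (version 4.0.16), and genes were filtered with filterByExpr and tested with the robust quasi-likelihood test. The BH adjustment ran over all genes tested, and genes with an adjusted p under 0.1 were called. The thalamus (13 libraries) was compared with the cortex (4), and, among thalamic libraries alone, each nucleus with the average of the other nuclei. The SE was taken as |log2FC|/√*F*, with *F* from the same test. No source states whether libraries of a group came from separate litters, so the tests measure the spread between these pools. The comparisons share libraries, and those between nuclei share all 13. The test was checked on simulated data with a common spread, in which only genes of higher counts were changed. That check does not bear on members near the floor.

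The members and all gene lists were chosen with earlier results of these data known. The genes named are the 9 members, the 5 receptors, other listed pathway genes called in at least 1 comparison, and, for members with a mean of at least 1 CPM in a group, the 3 genes of highest Pearson r among genes with a mean of at least 1 CPM. The marker lists of 9 cell types are given beside results. Counts over lists include all their genes, and a few of these genes are not reported here by name. Alternatives were DESeq2 (version 1.42.0) in place of edgeR, its size factors in edgeR, no filter or a mean of at least 10 counts, a limit of 0.05 on the adjusted p, a block for replicate letters, a covariate for number series, a joint fit of all 4 groups, and each library left out in turn. R 4.3.3, Python 3.11.15, numpy 2.4.6, pandas 2.3.3, and matplotlib 3.10.9 were used.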

Additional observations from a re-analysis of the deposited data

Results flagged for a closer look

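Among the 102 combinations of a named gene and a group in which levels varied, 3 had a library farther from the others than Dixon's 95% criterion allows. Chance gives such a value in about 1 of 20 groups. *Aldh1a2* was at 0.272 CPM in MGv replicate d and at 0 in the other MGv libraries. *Cyp26a1* was at 0.382 CPM in dLG replicate b and between 0 and 0.0996 CPM in the other dLG libraries. *Rai1* was at 25.3 CPM in cortex replicate c and between 14.9 and 16.4 CPM in the other cortical libraries.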

How the results depend on the processing

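No value changed its direction among those called. Of 64 counts of called genes under other settings than a left-out library, 49 stayed within 1.5 times the reported count. The cause of the 15 that did not was not tested. At an adjusted p under 0.05, no member was called between the thalamus and the cortex (2 reported), 1 each for the VPM and the MGv (2 each), and 4 other pathway genes for the VPM (10) and 0 for the dLG (1). DESeq2 called 3 members (1) and 2 other genes (1) for the dLG and 3 other genes for the MGv (0). A mean of at least 10 counts and the fit of 4 groups each gave 2 members for the dLG, and the fit of 4 groups gave 1 other gene for the MGv. With the number series as a covariate, 1 member was called for the MGv. When each library was left out in turn, the members called ranged from 0 to 2 for the thalamus, from 1 to 2 for the dLG, from 1 to 2 for the VPM, and from 1 to 3 for the MGv. The other pathway genes called ranged from 3 to 7, from 0 to 3, from 1 to 13, and from 0 to 2. Calls over all genes moved with the settings as well. For the VPM they went from 1224 higher and 1693 lower to 379 and 618 without VPM replicate a, and to 647 and 962 at 0.05. DESeq2 called 436 higher and 156 lower for the dLG, where edgeR called 163 and 37. For the MGv it called 614 and 355, where edgeR called 272 and 131.

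The replicate letters are shared between groups, and no source says that they mark a shared pool or day. Deviations of same-letter libraries had r from -0.173 to 0.266 in 24 pairs, 6 of them over 0.1, so the letters were not taken to pair the libraries. With the replicate block, 1 member was called for the thalamus, 1 for the dLG, 2 for the VPM, and 1 for the MGv, and 5, 0, 7, and 0 other pathway genes. Over all genes, the block gave 820, 97, 1361, and 419 called higher and 961, 19, 1581, and 253 called lower. Counting depth limits *Aldh1a3*, *Cyp26b1*, and *Crabp1* outside the MGv, whose levels lay near the floor of 3 counts.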
